A study of Mus musculus with 12 samples.

Results

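Traj44, Traj43, Traj42, Traj40 and Traj39 are joining (J) segments of the mouse T cell receptor alpha locus, Tcra. They are the next tabulated segments 3′ of those around the Traj49 promoter. They are 5 of the 43 Traj columns of each deposited table (TRAJ44, TRAJ43, TRAJ42, TRAJ40 and TRAJ39). The rule that picks them uses name and position and no measured value, but it was set with earlier results of these data known. Traj41, which the annotation places between Traj42 and Traj40, is not analysed here. A segment's share is its column, summed over all variable (Trav) partners, divided by the table's own total, and is given in percent of the repertoire.

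The study compared rearranged Tcra transcripts between homozygous DPASE knockout (KO) mice and homozygous wild-type (WT) mice. DPASE is a regulatory element in the locus of the recombinase genes Rag1 and Rag2. RNA came from sorted CD3e(-) double-positive (DP) thymocytes, the CD4 and CD8 expressing cells in which Tcra rearranges, taken before receptor selection from mice aged 4 to 6 weeks. Template-switch RACE with a primer in Trac, the constant segment, captured the transcripts up to the 5′ end. There were 6 groups of 2 libraries each. Steady-state libraries, KO and WT, held all preselection DP cells. Those of KO and WT mice killed 24 h or 48 h after an intraperitoneal injection of 1 mg of tamoxifen held ZsGreen+ preselection DP cells. All groups were labelled C57BL/6J with the Tcra-Tcrd region of strain 129, where TcrdCreER, a tamoxifen-activated Cre at the Tcrd locus, sits. All carried the genotype Rosa26ZsG/+, a reporter that Cre turns on, although the strain label also names Rosa26ZsG/ZsG. Labelling therefore depends on the cells that expressed this Cre when tamoxifen was given. The design text speaks of groups of 2 mice and does not say whether each library is its own mouse, so p-values measure the spread between libraries, which may be technical. Since the tables list Trav and Traj segments only, the knockout could not be checked in them.

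As background, a Tcra allele can rearrange more than once in a DP thymocyte. The first joins use Traj segments at the 5′ end of the J array, near the TEA and Traj49 promoters, with Trav segments close to the array. Each later round removes the earlier join and uses Traj segments farther 3′ with Trav segments farther away. Traj44 to Traj39 lie behind both promoters and ahead of most of the array, so they can serve early and later joins.

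The germline sequences of the 5 segments are shown because they are what the tables' columns stand for, and because they show how far the segments differ from each other. They are the transcripts of GENCODE M21, on the plus strand of chromosome 14 in build GRCm38, written 5′ to 3′. Capitals mark the first run of the codons TTN, GGN and NNN followed by GG (N, any base), the stretch of J segments where a phenylalanine codon and glycine codons are conserved. In Traj44 the first codon of the stretch is TTG, of leucine, and not a phenylalanine codon.
Traj44: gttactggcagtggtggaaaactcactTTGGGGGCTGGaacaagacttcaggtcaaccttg
Traj43: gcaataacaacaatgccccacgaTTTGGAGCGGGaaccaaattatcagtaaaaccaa
Traj42: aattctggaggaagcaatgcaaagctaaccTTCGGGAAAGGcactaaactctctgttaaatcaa
Traj40: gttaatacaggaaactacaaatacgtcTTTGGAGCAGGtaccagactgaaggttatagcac
Traj39: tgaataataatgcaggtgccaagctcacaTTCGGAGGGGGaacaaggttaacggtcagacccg

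Traj44 (ENSMUSG00000076886.1) occupies chr14:54173690-54173750 and Traj43 (ENSMUSG00000076887.1) chr14:54174742-54174798. Traj42 (ENSMUSG00000076888.1) occupies chr14:54175773-54175836, Traj40 (ENSMUSG00000076890.1) chr14:54177921-54177981 and Traj39 (ENSMUSG00000076891.1) chr14:54179962-54180024. Each is a coding J segment of 57 to 64 bases, and together they span 6.335 kb. The start of Traj44 lies 16.4 kb 3′ of the start of Traj58, the most 5′ segment tabulated, and 5.004 kb 3′ of that of Traj49. The start of Traj2, the most 3′ one, lies 37.9 kb beyond that of Traj39. The motif was found on the forward strand in all 5 segments and in 42 of the 43 tabulated ones (97.7%), and on the reverse strand in 0, so it does not set the 5 apart. The longest run of bases that a member shares with any other tabulated Traj is 9 bases for Traj43 and Traj39, 11 for Traj44 and Traj42, and 13 for Traj40. The reference is C57BL/6J, whereas the labels give the locus to strain 129, whose sequence is not analysed here.

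The deposited values are fractions, and neither reads nor molecules are given, so depth is unknown and no counting interval was computed. Replicate 2 of both genotypes at 24 h and 48 h, 4 libraries, stood apart: their fractions summed to 1.97 to 1.99, against 0.995 to 0.998 in the other 8, and their smallest share above 0 was 0.00401% to 0.00937%, against 0.000336% to 0.000853%. Of the 395 pairs of a member with a Trav listed in all tables, 91 to 160 stood at 0 in these 4 libraries and 1 to 15 in the other 8. Most limma tests that rest on them are given with and without them. Counts by Trav, use by zone of the Trav array and group means of partner rank are given with them only. Without them each labelled group holds 1 library, so the spread in that fit comes from the 4 steady-state libraries alone (2 residual degrees of freedom). Its calls are given beside the share of all segments it calls, and show nothing of the spread at 24 h or 48 h. Pairs that mark other cells were low: Trav11 with Traj18, of invariant NKT cells, held 0% to 0.0462% of each library, and Trav1 with Traj33, of MAIT cells, 0% to 0.0503%. The 10 Trav segments named with DV, which can also join in Tcrd, held 11.03% to 16.4% in the 8 libraries and 23.6% to 33.2% in the 4. Their part in the results was not tested, except that one of them, Trav15-2/dv6-2, was left out as described below.

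Together the 5 segments held between 11.4% and 19.5% of the repertoire. At steady state their sum was 15.8% and 14.98% in KO and 12.3% and 11.4% in WT (means 15.4 ± 0.563 and 11.9 ± 0.635, SD, n = 2 libraries each). At 24 h it was 15.6% and 13.8% in KO and 17.6% and 18.2% in WT (14.7 ± 1.29 and 17.9 ± 0.433). At 48 h it was 19.46% and 19.54% in KO and 13.0% and 13.4% in WT (19.5 ± 0.0553 and 13.2 ± 0.279). KO libraries were thus the lower ones at 24 h and the higher ones at the other 2 samplings, without overlap. The KO minus WT difference was 3.51 percentage points at steady state, -3.20 at 24 h (-1.98 in replicate 1 and -4.42 in replicate 2) and 6.30 at 48 h (6.45 and 6.14). From the highest mean to the lowest, the groups ran KO 48 h, WT 24 h, KO steady state, KO 24 h, WT 48 h, WT steady state; only KO steady state and KO 24 h overlapped among neighbours in this order. As a score over chosen segments, the sum has no p-value. In bulk RNA, fewer cells with a segment and less Tcra RNA per such cell cannot be told apart.

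**Figure D1:**
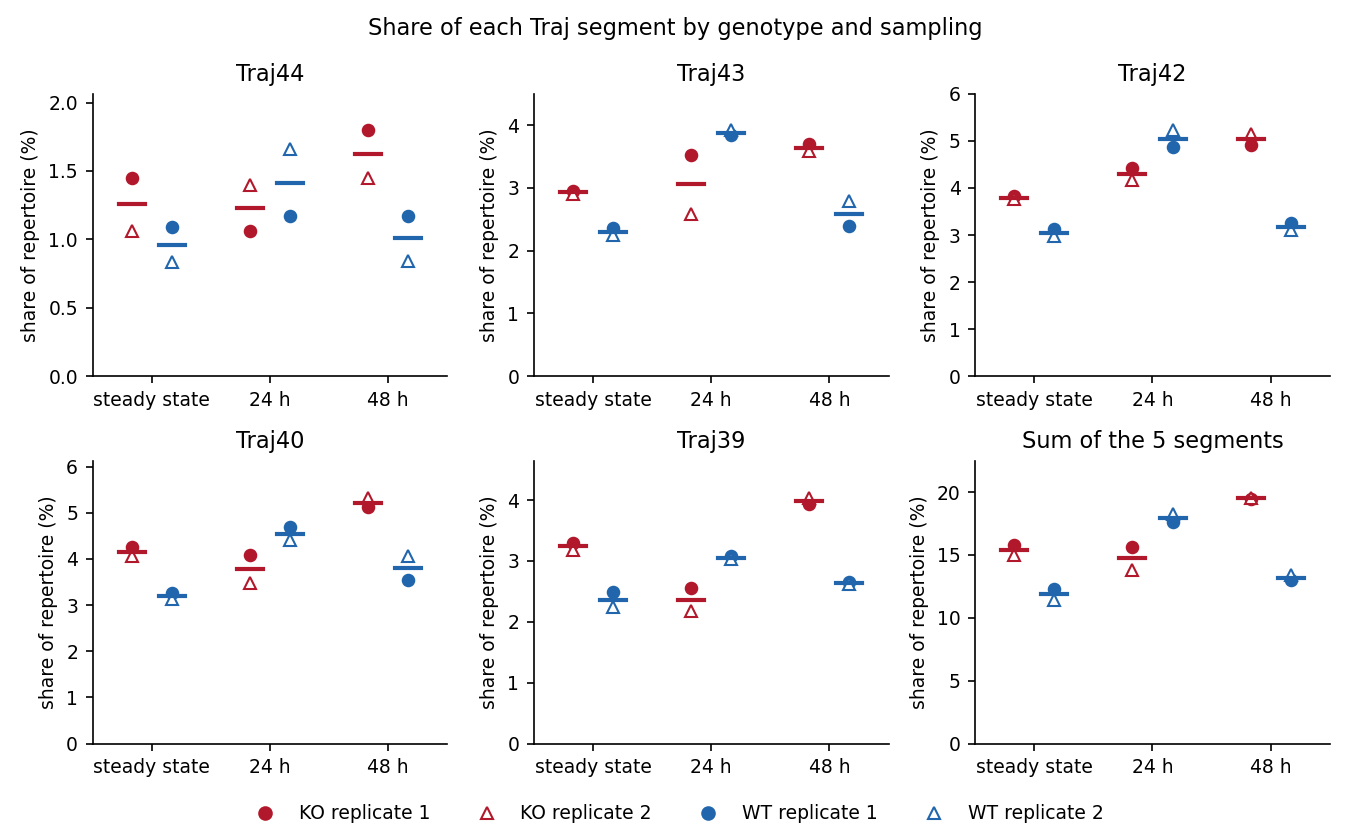
Share of each of the 5 Traj segments, and their sum, in percent of the repertoire (y axis, from 0) by sampling (x axis), with KO left of WT. Points are libraries (filled circle, replicate 1; open triangle, replicate 2) and bars are means of 2 libraries; at 48 h both KO libraries lie above both WT libraries in all 6 panels.

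The 5 segments differed in level. Over the 12 libraries Traj40 averaged 4.12% (3.13% to 5.32%) and Traj42 4.07% (2.98% to 5.22%), which ranked 6 and 7 among the 43 segments. Traj43 averaged 3.06% (2.24% to 3.91%) and Traj39 2.94% (2.18% to 4.04%), at ranks 16 and 17. Traj44 was the least used of the 5, at 1.25% (0.832% to 1.80%) and rank 30. Within their sum, Traj40 made up 24.2% to 30.3%, Traj42 23.1% to 30.1%, Traj43 18.3% to 22.5% and Traj44 6.27% to 10.1%. Traj39, the most 3′ of the 5, made up 15.8% to 17.4% of the sum in the 4 libraries at 24 h and 19.5% to 21.3% in the other 8, so its part was lower at 24 h in both genotypes. Across the 12 libraries the log2 shares of the members correlated with each other at Pearson's r of 0.58 (Traj44 with Traj43) to 0.91 (Traj43 with Traj42). The tabulated segments outside the 5 that followed their sum most closely lay on the 5′ side: Traj45 (r = 0.76), Traj47 (0.72) and Traj48 (0.66), each over 12 libraries. These libraries share groups and replicate numbers, so the correlations are a description only.

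In the steady state all 5 means were higher in KO, and Traj39 passed the test. Traj39 held 3.30% and 3.19% in KO and 2.49% and 2.24% in WT. Traj40 held 4.26% and 4.06% in KO and 3.27% and 3.13% in WT. Both segments were higher in every KO library than in any WT library. Traj42 held 3.82% and 3.77% in KO and 3.12% and 2.98% in WT, and Traj43 held 2.95% and 2.91% in KO and 2.35% and 2.24% in WT, again without overlap. Traj44 held 1.45% and 1.06% in KO and 1.09% and 0.832% in WT, which overlap. On log2(percent + 0.01), Traj39 rose by 0.46 (SE 0.12, adjusted p = 0.0205, limma with Benjamini-Hochberg adjustment over the 43 segments). For Traj40, Traj42, Traj43 and Traj44 the log2 differences were 0.38, 0.31, 0.35 and 0.38, with limma adjusted p of 0.0532, 0.0629, 0.107 and 0.255. Over all 43 segments 9.3% were called higher in this fit, so its count of 1 of 5 is not far from the background. Both KO libraries lay above both WT libraries for 46.5% of the 43, against 4 of 5 here. On the centred scale each library is centred on its mean log2 share, which adds 0.15 to every difference at steady state. The 5 differences on that scale were 0.46 to 0.61. There 4 of 5 were called higher, against 25.6% of the 43, so the count depends on the setting. The median difference was 0.38 over the 5 and 0.04 over all 43. The call of Traj39 was lost without any single one of the 4 steady-state libraries (limma adjusted p 0.143 and 0.0806 without KO replicate 1 and 2, 0.0507 and 0.199 without WT replicate 1 and 2). With the replicate number as a block, 4 of 5 were called higher: Traj44 and Traj40 (adjusted p = 0.00911 for each), Traj42 (0.0185) and Traj39. The block called 34.9% of all 43 higher.

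At 24 h after tamoxifen all 5 means were lower in KO in percent of the repertoire, and higher in KO on a scale that centres each library on its mean log2 share. Traj39 held 2.55% and 2.18% in KO and 3.07% and 3.03% in WT. Traj40 held 4.08% and 3.49% in KO and 4.69% and 4.41% in WT. Both stood lower in each KO library than in each WT library. Traj42 held 4.43% and 4.16% in KO and 4.86% and 5.22% in WT. Traj43 held 3.53% and 2.59% in KO and 3.84% and 3.91% in WT. These too did not overlap, whereas Traj44 did, with 1.06% and 1.40% in KO and 1.17% and 1.66% in WT. Traj39 fell by 0.37 on the log2 scale (SE 0.12, limma adjusted p = 0.0214), while on the centred scale it was 0.16 higher in KO (adjusted p = 0.287). The log2 differences of Traj44, Traj43, Traj42 and Traj40 were -0.19, -0.36, -0.23 and -0.27 (limma adjusted p 0.508, 0.0596, 0.0823 and 0.0815), and all 4 were likewise positive on the centred scale, at 0.18 to 0.34.

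The members' differences at 24 h were less negative than that of the median segment. The median log2 difference at 24 h was -0.27 over the 5 and -0.66 over all 43, where it was -0.13 on the centred scale. Of all 43 segments 58.1% were called lower, against 1 of the 5, and 67.4% had both KO libraries below both WT libraries, against 4 of the 5. The 6 segments called higher, 14% of the 43, all lay 5′ of the members. With the replicate block 4 of the 5 were called lower: Traj43 (limma adjusted p = 0.0442), Traj42 (0.0382), Traj40 (0.0177) and Traj39. The block called 69.8% of all 43 lower. The unblocked call of Traj39 was lost without KO replicate 2 (adjusted p = 0.124), WT replicate 1 (0.0813) or WT replicate 2 (0.0512), and without the 4 libraries with totals near 2 (-0.27, adjusted p = 0.18), where 65.1% of the 43 were called lower.

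At 48 h all 5 segments were higher in KO and all 5 passed the test. Traj42 held 4.92% and 5.15% in KO and 3.26% and 3.10% in WT. Traj39 held 3.93% and 4.04% in KO and 2.65% and 2.62% in WT. Traj40 held 5.12% and 5.32% in KO and 3.54% and 4.07% in WT. Traj43 held 3.70% and 3.58% in KO and 2.39% and 2.78% in WT. For each of these segments, the gap between the nearest KO and WT libraries was larger than that between the libraries of a group. Traj44 held 1.80% and 1.45% in KO and 1.17% and 0.840% in WT. None of the 5 overlapped, which was the case, in this direction, for 37.2% of the 43 segments.

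The KO to WT ratio of mean shares at 48 h was 1.61 for Traj44, 1.41 for Traj43, 1.59 for Traj42, 1.37 for Traj40 and 1.51 for Traj39. On the log2 scale Traj42 rose by 0.66 (SE 0.11, limma adjusted p = 0.000883) and Traj39 by 0.60 (SE 0.12, adjusted p = 0.00247). Traj40 rose by 0.46 (SE 0.13, limma adjusted p = 0.0127), Traj43 by 0.49 (SE 0.16, adjusted p = 0.0197) and Traj44 by 0.70 (SE 0.26, adjusted p = 0.0359). Of the 43 segments, 27.9% were called higher, against 5 of 5 here, 5 of 6 segments of the Traj49 window (Traj52 to Traj45) and 0 of 7 from Traj38 to Traj31. Centring adds 0.35 to every difference at 48 h, so positive ones could only grow and the centred scale is no separate check here. On it the 5 differences were 0.81 to 1.05. All 5 were called higher there, as were 44.2% of the 43. Without the 4 libraries with totals near 2, and so with 1 KO and 1 WT library at 48 h, the differences were 0.53 to 0.63, and all 5 members and 32.6% of the 43 were called higher. Traj42 and Traj39 were also called without each single library in turn. The call of Traj44 was lost without KO replicate 1 (limma adjusted p = 0.175), KO replicate 2 (0.0582) or WT replicate 2 (0.203). That of Traj43 was lost without KO replicate 1 (0.0815), KO replicate 2 (0.0704) or WT replicate 1 (0.128), and that of Traj40 without KO replicate 2 (0.0713) or WT replicate 1 (0.0974).

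**Figure D2:**
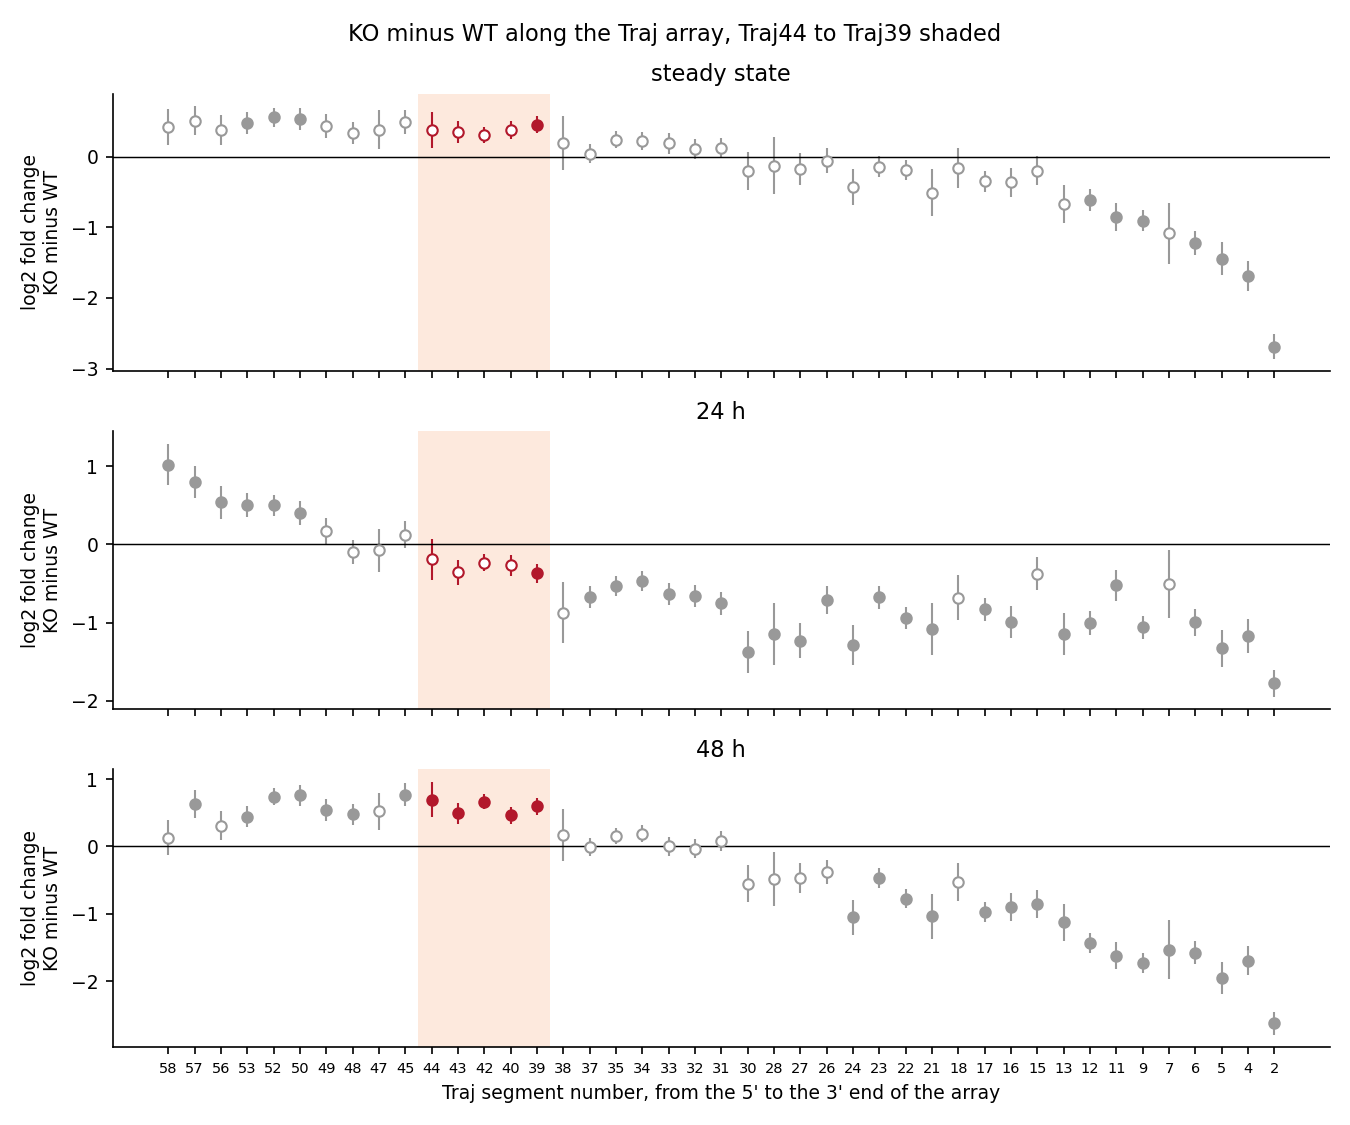
Log2 difference in share, KO minus WT (y axis, on log2(percent + 0.01)), for the 43 Traj segments in array order, 5′ end at the left (x axis), at each sampling, with Traj44 to Traj39 shaded. Points are limma estimates with SE bars and are filled where the adjusted p is under 0.05; the shaded segments lie below 0 at 24 h, where the centred scale puts them above 0, and above 0 in the other panels.

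The flanking segments place the change along the array in percent of the repertoire. On the 5′ side, Traj45 was called higher in KO at 48 h (log2 difference 0.77, limma adjusted p = 0.004) and Traj47 was not (0.52, adjusted p = 0.122). On the 3′ side at 48 h, Traj38 and Traj37 differed by 0.16 and -0.01 (limma adjusted p 0.731 and 0.949). At 24 h Traj37 was called lower in KO (-0.67, limma adjusted p = 0.0024), with Traj38 at -0.87 (0.0618), Traj45 at 0.12 (0.508) and Traj47 at -0.07 (0.794). By mean share in percent, 11 of the 43 segments (25.6%) were higher in KO in the steady state and at 48 h and lower at 24 h: the 5 members, 2 of 6 in the Traj49 window and 4 of 7 from Traj38 to Traj31. With no overlap of libraries in any sampling this held for 6 of the 43 (14%), 4 of them members. On the centred scale the members were higher in KO at 24 h too. At 48 h that scale shifts all differences by 0.35, and 44.2% of the 43 were called higher there. Segments 3′ of Traj39 were among them, so the 3′ edge of the change depends on the scale.

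Averaged over the 3 samplings, KO minus WT was 0.25 for Traj42 (limma adjusted p = 0.00637), 0.23 for Traj39 (0.0146) and 0.19 for Traj40 (0.0386) on the log2 scale, and these 3 were called higher, against 27.9% of the 43 segments. Traj44 (0.30, adjusted p = 0.0894) and Traj43 (0.16, adjusted p = 0.117) did not pass. For all 5 members, this mean joins positive differences at steady state and 48 h with a negative one at 24 h. It therefore does not describe each sampling. Traj44 was called with the replicate block (limma adjusted p = 0.00125), which called 32.6% of the 43 higher. Centring adds 0.34 to every difference in the mean, so positive ones could only grow. On the centred scale all 5 members and 41.9% of the 43 were called higher, and without the 4 libraries with totals near 2 all 5 and 34.9%. The call of Traj39 was lost without WT steady-state replicate 2 (0.0587). That of Traj40 was lost without any single library other than KO 24 h replicate 2 and WT 48 h replicate 2 (adjusted p 0.0513 to 0.0976).

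The time course asks how the members moved from 24 h to 48 h after labelling, and here the genotypes differed. The sum changed by 4.77 percentage points in KO and by -4.73 in WT. In KO, Traj39 rose by 0.75 on the log2 scale between 24 h and 48 h (limma adjusted p = 0.000224) and Traj40 by 0.47 (adjusted p = 0.00666); on the centred scale they were at -0.08 and -0.37. In KO, Traj44, Traj43 and Traj42 changed by 0.40, 0.27 and 0.23 (limma adjusted p 0.159, 0.128 and 0.0779), and by -0.43, -0.57 and -0.61 on the centred scale. In WT, Traj42 fell by 0.66 (limma adjusted p = 0.000387) and Traj43 fell by 0.58 (adjusted p = 0.00602). In WT, Traj44, Traj40 and Traj39 changed by -0.48, -0.26 and -0.21 (limma adjusted p 0.107, 0.0881 and 0.129). Over all 43 segments, 67.4% were called higher at 48 h than at 24 h in KO, against 2 of the 5, and 25.6% were called lower in WT, against 2 of the 5. The median change over all segments was 1.26 in KO and 0.44 in WT on the log2 scale, and 0.43 and -0.21 on the centred scale, on which 3 members were called lower in KO (30.2% of the 43) and 5 in WT (46.5%). Without the 4 libraries with totals near 2 each arm was 1 library, and 69.8% of the 43 were called higher in KO. Traj40 was then no longer called in KO (0.33, adjusted p = 0.0852), Traj44 was called there (0.75, adjusted p = 0.000149), and the WT change of Traj44 was 0.00 (adjusted p = 0.985).

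The difference between these changes was itself tested. The KO minus WT difference was larger at 48 h than at 24 h by 0.97 for Traj39 (SE 0.17, limma adjusted p = 0.00592), 0.89 for Traj42 (SE 0.16, adjusted p = 0.00592), 0.85 for Traj43 (SE 0.22, adjusted p = 0.0213) and 0.73 for Traj40 (SE 0.18, adjusted p = 0.0213). For Traj44 it was 0.89 (SE 0.37, adjusted p = 0.0877; 0.00384 with the replicate block, which called 48.8% of the 43). Of the 43 segments, 23.3% were called in this direction, against 4 of the 5, 6 of 7 from Traj38 to Traj31, 0 of 6 in the Traj49 window and 0 of 4 in the TEA window (Traj58, Traj57, Traj56 and Traj53). All 5 were positive on the centred scale, where 3 were called, against 11.6% of the 43. Without the 4 libraries with totals near 2 all 4 groups of this contrast held 1 library, and only steady-state libraries gave the spread. The values were then 0.73 to 0.84 (adjusted p 0.014 to 0.0216), and all 5 members and 37.2% of the 43 were called. The calls of Traj43 and Traj40 were each lost without KO 24 h replicate 2 (adjusted p = 0.0678), KO 48 h replicate 1 (0.0615), KO 48 h replicate 2 (0.0681) or WT 48 h replicate 1 (0.093). In a fit of the labelled libraries alone none of the 5 was called (adjusted p 0.0661 to 0.0892), as was none of the 43 (0%).

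**Figure D3:**
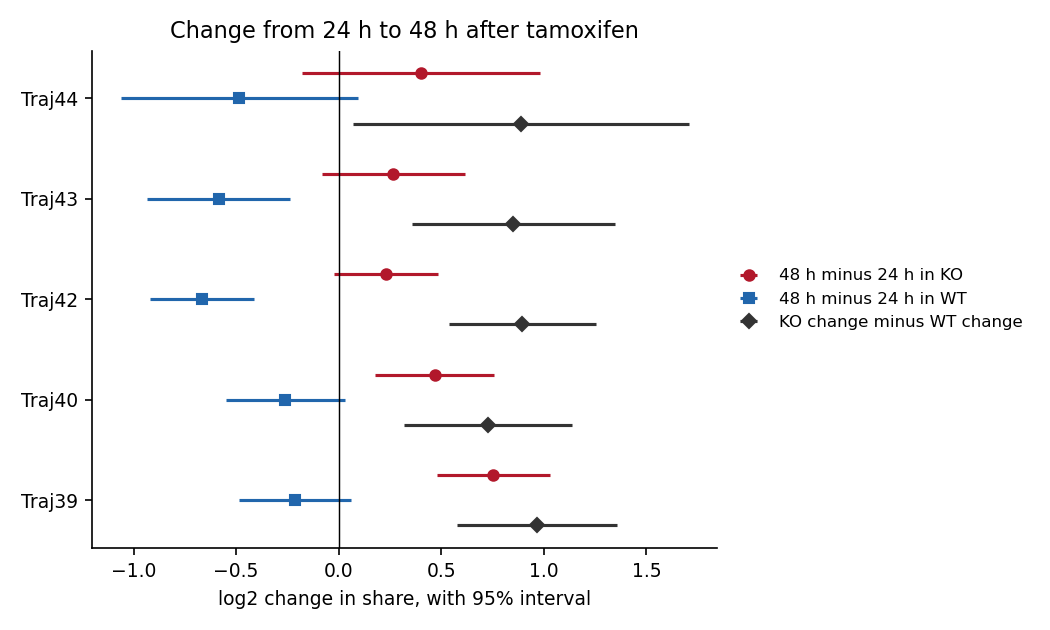
Log2 change in share from 24 h to 48 h (x axis, with 95% limma intervals) for each of the 5 segments (y axis), in KO, in WT, and as the KO change minus the WT change. All 5 KO estimates are above 0 and all 5 WT estimates below 0 on this scale; on the centred scale the KO estimates are below 0 as well, and the KO minus WT differences stay above 0.

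The same test against steady state gave a larger KO minus WT difference there than at 24 h by 0.83 for Traj39 (limma adjusted p = 0.0213), 0.71 for Traj43 (0.0326), 0.65 for Traj40 (0.0251) and 0.54 for Traj42 (0.0277). Traj44 had 0.57 (adjusted p = 0.245; 0.00798 with the replicate block, which called 53.5% of the 43). Of the 43 segments, 30.2% were called in this direction, against 4 of the 5. On the centred scale none of the 5 was called (0.16 to 0.44), nor any of the 43 in this direction (0%). Traj39 and Traj40 were called without the 4 libraries with totals near 2, with 39.5% of the 43. All 4 calls were lost without KO 24 h replicate 2 (adjusted p 0.0641 to 0.0878), WT 24 h replicate 1 (0.0577 to 0.0656), KO steady-state replicate 2 (0.0851 to 0.0872) or WT steady-state replicate 1 (0.0727 to 0.0761) or 2 (0.0749 to 0.108). Traj39 alone kept its call without KO steady-state replicate 1, and Traj43 and Traj42 lost theirs without WT 24 h replicate 2 (0.0573 and 0.0593).

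The Trav partners show how the shares were made up. Use by zone and counts by Trav split the same shares by Trav, so they are no separate support for the order of KO and WT. The mean rank of the partners, given below, is a readout that the rule for the segments did not use. Trav segments were ranked along the chromosome from 1, farthest from the J array, to 78, nearest, and split into distal, central and proximal zones of 26. The 5 segments together were joined most to Trav15-2/dv6-2, Trav14-3, Trav4-4/dv10, Trav7-4 and Trav3-3, which averaged 0.826%, 0.618%, 0.596%, 0.593% and 0.547% of the repertoire with them. Of these 5 partners, Trav7-4 is central and the others are proximal. For single members, Trav15-2/dv6-2 was first for Traj43 (0.145%), Traj42 (0.277%), Traj40 (0.1698%) and Traj39 (0.194%), and Trav14-3 was first for Traj44 (0.0799%).

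The lead of Trav15-2/dv6-2 came from the 4 libraries with totals near 2. With the 5 segments it held 1.73% to 2.83% of these libraries and 0.0861% to 0.194% of the other 8. It held 9.77% to 18.3% of their whole repertoires, against 0.557% to 1.10%, so the difference was not particular to these Traj segments. The part of its own joins that used Traj44 to Traj39 was 14.9% to 20.7% in the 4 libraries and 14.97% to 20.9% in the 8. Leaving this Trav out gave KO minus WT differences in the sum of 3.52, -3.32 and 6.45 percentage points at steady state, 24 h and 48 h. Of the other leading partners, Trav3-3 held 0.632% and 0.599% with the 5 segments in KO and 0.406% and 0.429% in WT at steady state. At 48 h Trav3-3 held 0.824% and 0.477% in KO and 0.438% and 0.150% in WT.

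The difference between genotypes was spread over the V array. Of all joins of distal Trav, 13.4% and 12.4% used Traj44 to Traj39 in KO and 9.02% and 8.18% in WT at steady state. At 24 h the values for distal Trav were 14.2% and 10.3% in KO and 16.9% and 17.3% in WT, and at 48 h 18.8% and 18.2% in KO and 10.6% and 11.9% in WT. For central Trav the group means were 15.6 ± 0.711% in KO and 11.7 ± 0.823% in WT at steady state, 16.4 ± 2.40% in KO and 20.1 ± 0.807% in WT at 24 h, and 19.97 ± 0.221% in KO and 11.95 ± 0.834% in WT at 48 h (SD, n = 2 each). For proximal Trav they were 16.6 ± 0.168% in KO and 15.05 ± 0.131% in WT at steady state, 14.6 ± 0.551% in KO and 17.2 ± 0.414% in WT at 24 h, and 19.5 ± 0.392% in KO and 15.2 ± 0.0148% in WT at 48 h. In all 3 zones KO use was lower than WT use at 24 h and higher at the other samplings. The steady-state and 48 h differences were smallest for proximal Trav.

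**Figure D4:**
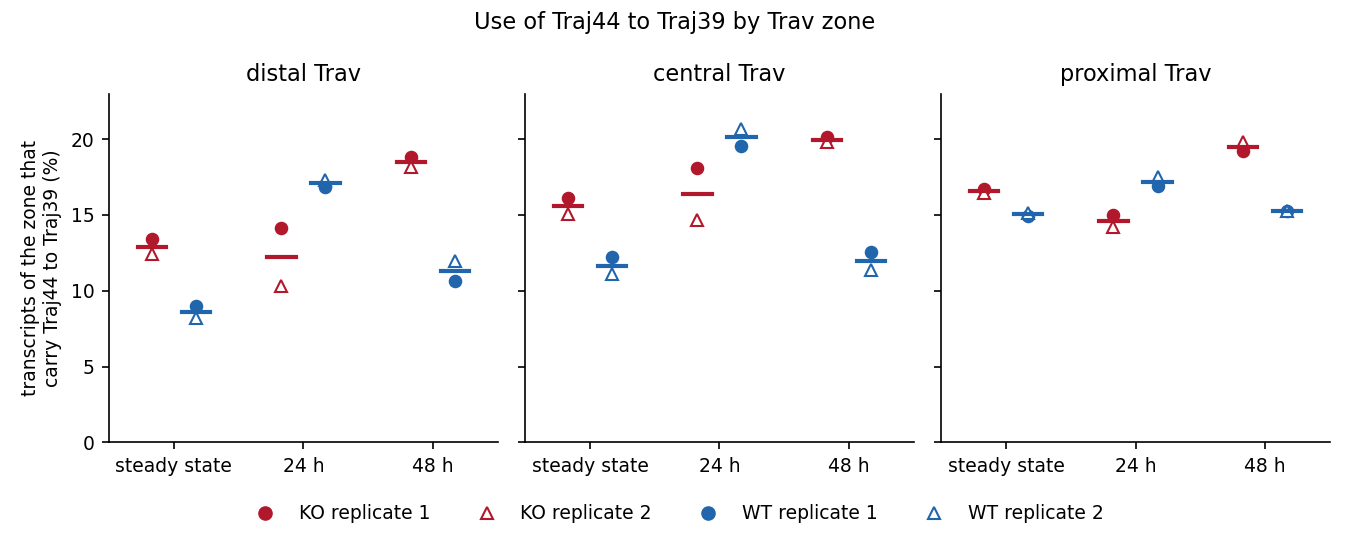
Percent of the transcripts of each Trav zone that carry Traj44 to Traj39 (y axis, from 0) by sampling (x axis), for distal, central and proximal Trav, with KO left of WT. Points are libraries (filled circle, replicate 1; open triangle, replicate 2) and bars are means of 2; at 48 h KO libraries lie between 18.2% and 20.1% in all 3 zones, WT libraries between 10.6% and 15.2%.

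Counted by Trav, mean use of the 5 segments was higher in KO for 75 of 79 Trav at steady state, 16 of 79 at 24 h and 74 of 79 at 48 h. Distal Trav gave 26, 5 and 25 of 26, central Trav 26, 7 and 24 of 26, and proximal Trav 22, 4 and 24 of 26. Beside them, use of the 7 segments from Traj38 to Traj31, the next window 3′, was higher in KO for 61, 5 and 50 of the 79 Trav. Like the members, it was higher in KO for most Trav at steady state and 48 h and for few at 24 h. Use of the Traj49 window was higher in KO for 79, 64 and 72 of the 79 Trav, and use of Traj11 to Traj2 for 0, 13 and 2. Trav of 1 library share their mice and totals, so these counts are a description and not replicates.

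Across the 3397 pairs of a Trav with a Traj, 395 held a member, and limma called 0 of the 395 in any KO minus WT comparison (at steady state 0.294% of all pairs were called, all lower, at 24 h and 48 h 0, and over the mean 1.09%, all lower). At an unadjusted p under 0.05, 53 member pairs were higher and 0 lower at 48 h, against 5.53% higher and 9.48% lower of all pairs. At 24 h 1 was higher and 12 lower (all pairs 1.32% and 4.18%). At steady state 2 were higher and 0 lower (0.147% and 6.06%), and over the mean of the samplings 20 and 0 (4.03% and 11.7%). The spread in this fit comes from all 12 libraries, and in 4 of them 91 to 160 of the 395 pairs stood at 0. Some other settings called member pairs at steady state and in the mean, as given at the end. Without the 4 libraries with totals near 2, and so with 1 KO and 1 WT library at 48 h, the adjusted test called 33 member pairs higher and 3 lower, against 3.71% and 16.2% of all 3397 pairs.

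The mean rank of the partners tells whether the members were joined to nearer or farther Trav. For the 5 segments together it was 46.1 ± 0.609 in KO and 44.97 ± 0.314 in WT at steady state, 53.3 ± 1.44 in KO and 51.1 ± 1.54 in WT at 24 h, and 47.96 ± 2.09 in KO and 46.1 ± 2.79 in WT at 48 h (SD, n = 2 each). Over all Traj it was 44.8 ± 0.981 in KO and 40.7 ± 1.03 in WT at steady state, 53.6 ± 0.0676 in KO and 52.2 ± 1.48 in WT at 24 h, and 48.3 ± 1.59 in KO and 43.6 ± 2.86 in WT at 48 h. Partners were thus nearest to the array at 24 h in both genotypes.

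None of the 5 segments passed the test of KO minus WT partner rank at any sampling. The differences were 0.98 to 1.31 ranks at steady state, 1.16 to 3.39 at 24 h and -0.36 to 3.27 at 48 h. The call shares over all 43 segments were 2.33%, 0% and 34.9%, and at an unadjusted p under 0.05 the test marked 0, 0 and 0 of the 5 and 10, 4 and 20 of the 43. For Traj39 the 95% limma intervals ran from -3.02 to 5.43 ranks at steady state and from -2.20 to 6.25 at 48 h. Differences of several ranks were thus within the error. This error includes the 4 libraries with totals near 2, in which Trav15-2/dv6-2 was high. The negative value at 48 h was that of Traj43. Its rank was 46.99 in KO and 45.3 in WT in replicate 1, and 47.7 and 50.1 in replicate 2. Calls without Trav15-2/dv6-2 are given at the end. Averaged over the samplings, 0 of the 5 were called (0.81 to 2.21 ranks, smallest adjusted p 0.0575 for Traj40), against 39.5% of the 43. With the replicate block Traj42, Traj40 and Traj39 were called in that mean (limma adjusted p 0.0254, 0.012 and 0.0121), with 60.5% of the 43. All 5 and 81.4% of the 43 were called without the 4 libraries with totals near 2.

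From 24 h to 48 h the partners moved away from the array in both genotypes. In KO, the partner rank fell by 7.79 for Traj39 (limma adjusted p = 0.00531), by 6.17 for Traj40 (0.00442) and by 5.03 for Traj43 (0.0169), with -3.68 for Traj42 (0.123; 0.021 with the replicate block, under which 55.8% of the 43 were called) and -3.29 for Traj44 (0.236). In WT, it fell by 6.42 for Traj39 (limma adjusted p = 0.00888), by 5.81 for Traj40 (0.00285), by 4.53 for Traj42 (0.0488) and by 5.40 for Traj44 (0.0439), with -2.87 for Traj43 (0.123). Over the 43 segments 55.8% were called lower in KO, against 3 of the 5, and 76.7% in WT, against 4 of the 5. The median change in rank was -5.03 over the 5 and -5.51 over the 43 in KO, and -5.40 over the 5 and -8.34 over the 43 in WT. Calls changed when single libraries were left out: in KO none was left without KO 48 h replicate 1 or KO 24 h replicate 2, and Traj43 was lost without KO 24 h replicate 1 (adjusted p = 0.0601). In WT, Traj40 alone kept its call without WT 48 h replicate 1 or WT 24 h replicate 2, and Traj44 and Traj42 were lost without any single steady-state library (adjusted p 0.0542 to 0.0671). Without the 4 libraries with totals near 2, where each arm was 1 library, all 5 were called lower in KO and in WT, and so were 86% of the 43 in each genotype.

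**Figure D5:**
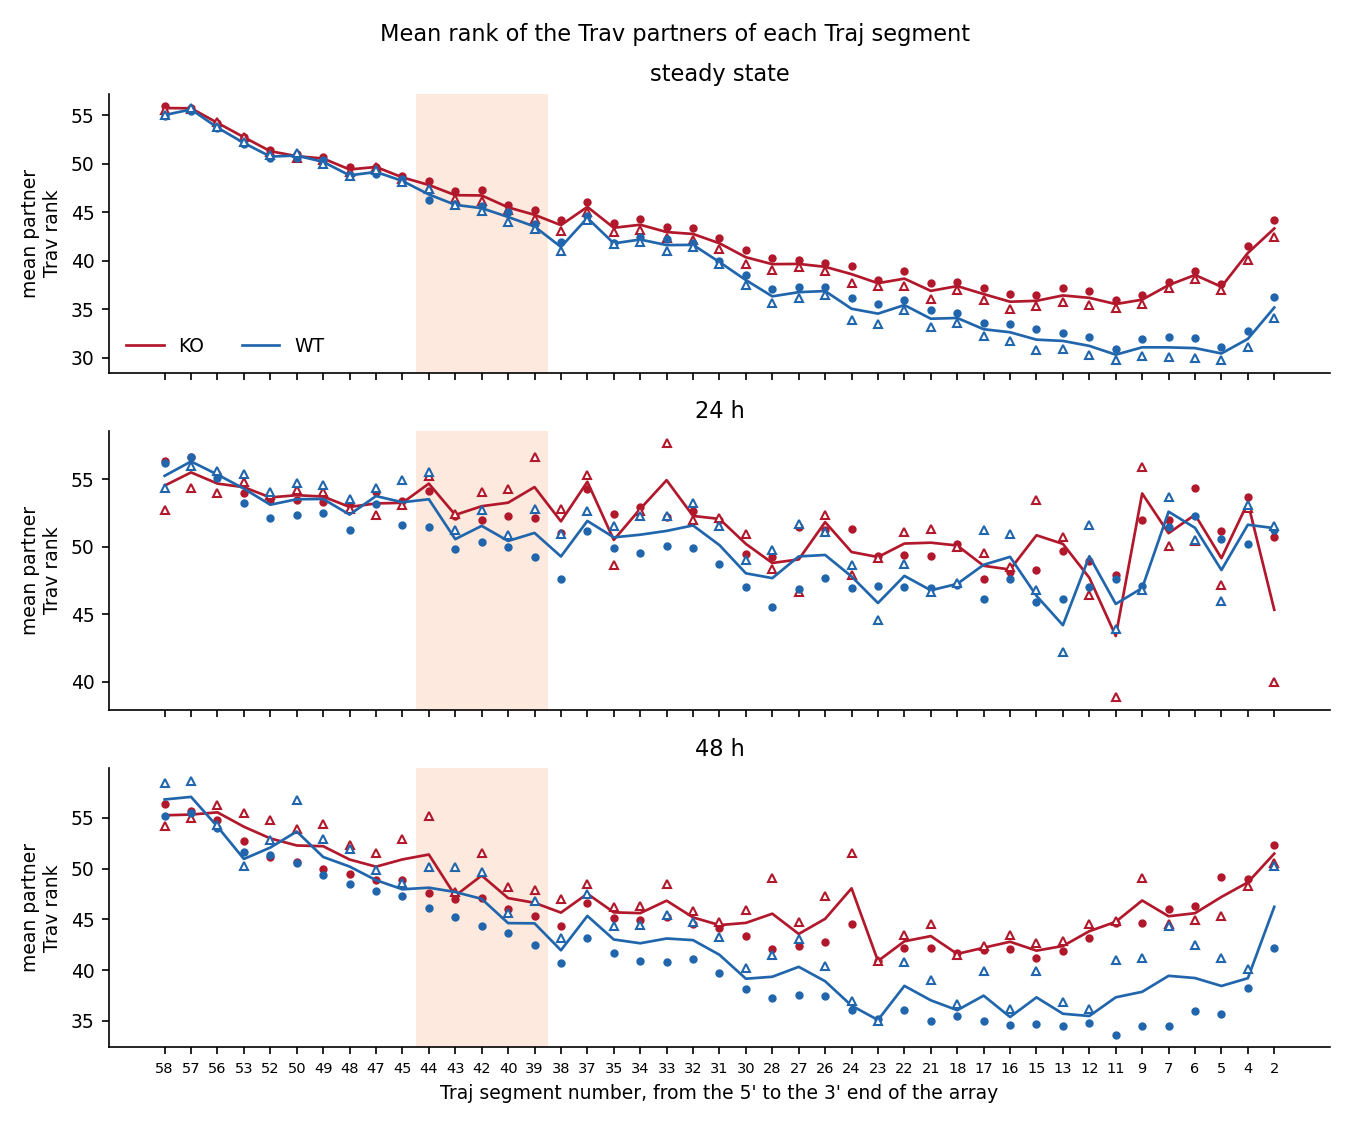
Share-weighted mean rank of the Trav partners (y axis; 1, farthest from the J array; 78, nearest) of each Traj in array order (x axis) at each sampling, with Traj44 to Traj39 shaded. Points are libraries (filled circle, replicate 1; open triangle, replicate 2) and lines join the means of 2; within the shaded segments steady-state library values lie at 43.2 to 48.3 and those of 24 h at 49.3 to 56.7.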

How the data were processed

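Each of the 12 tables gives fractions of the Tcra repertoire per pair of a Trav row and a Traj column, as deposited by the authors and per the file headers. The aligner, annotation, build, depth and kind of count were not given in the sources used here. Fractions were divided by each table's own total. Of 85 Trav listed in any table, 79 are in all 12; the other 6 entered the totals but no pair. Partner ranks used 78 Trav, 77 placed by GENCODE M21 and 1 by RefSeq, both GRCm38; 1 could not be placed. Near-identical Trav copies could be assigned to each other.

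Shares were tested as log2(percent + 0.01), a scale that understates changes of low values, and partner ranks untransformed, with limma 3.58.1 in R 4.3.3. A single fit over the 12 libraries had a mean for each group (6 residual degrees of freedom), two-sided, with Benjamini-Hochberg adjustment at 0.05 over all 43 Traj or 3397 pairs. The code was tested on simulated data.

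Replicate numbers shared by KO and WT were treated as pairing the libraries in the blocked fit only. The block had a separate term for each sampling, except for changes from 24 h to 48 h within a genotype. There 1 term tied replicate numbers across both labelled samplings, and its replicate 2 is the 4 libraries with totals near 2. Deviations from the group means correlated at 0.948 (steady state), 0.666 (24 h) and 0.415 (48 h) across the 43 segments. All p-values not named as blocked ignore this pairing. The fit without the block was the one planned as the first, and blocked values stand beside results whose call they change. Named were all 5 members, Traj47, Traj45, Traj38 and Traj37, the 3 Traj most alike, the 3 leading Trav per member and the 5 leading Trav overall. Other windows and zones are described by counts. Members and lists were chosen with earlier results of these data known. Alternatives were other pseudocounts, a low-share filter, the total over shared Trav, centring, the replicate block, library weights, separate fits, Trav without the suffix D (45) and leaving out libraries.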

Additional observations from a re-analysis of the deposited data

Results flagged for a closer look

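A difference between samplings in the KO minus WT log2 difference, by limma's test of that difference, drew attention to 4 of the 5 segments. Between 48 h and 24 h it was 0.851 for Traj43, 0.894 for Traj42, 0.728 for Traj40 and 0.966 for Traj39. Between steady state and 24 h it was 0.707 for Traj43, 0.544 for Traj42, 0.647 for Traj40 and 0.827 for Traj39, and these 4 were not called on the centred scale, on which the 48 h values of Traj43, Traj42 and Traj39 were.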

How the results depend on the processing

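Over all alternatives, 738 of 875 values of segment shares and 494 of 565 of partner ranks kept their direction and their side of the threshold; for the values below the cause was not tested, beyond fewer libraries where some were left out. The counts below are of members (of 5) or member pairs (of 395) called by limma. Leaving out the 4 libraries with totals near 2, or Trav15-2/dv6-2, was chosen after seeing the data. Shares of all segments or pairs called stand with the results above, for some settings only. Where that share is missing, a count does not show that the members differ from the other segments or pairs. For KO minus WT shares at steady state the count was 2 with a pseudocount of 0.1, 4 on the centred scale, 4 with the replicate block, 4 with library weights, 5 in a fit of that sampling alone and 5 without the 4 libraries (0 to 4 leaving out single libraries). At 24 h it was 0 on the centred scale, with library weights, in a fit of that sampling alone and without the 4 libraries, and 4 with the replicate block (0 to 3 leaving out single libraries). At 48 h it was 2 to 5 leaving out single libraries. For the mean of the samplings it was 5 on the centred scale and 5 without the 4 libraries (1 to 4 leaving out single libraries). For the difference between 48 h and 24 h it was 0 in a fit of the labelled libraries alone (2 to 5 leaving out single libraries), and between steady state and 24 h it was 0 on the centred scale, 1 in a fit of those libraries alone and 2 without the 4 libraries (0 to 4). For 48 h minus 24 h in WT it was 5 on the centred scale. The sum at 24 h was -1.98 percentage points without the 4 libraries.

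Directions reversed on the centred scale at 24 h (0.34, 0.18, 0.30, 0.26 and 0.16 from Traj44 to Traj39) and for 48 h minus 24 h in KO (-0.43, -0.57, -0.61, -0.37 and -0.081), where 3 were called lower; centring shifts the median of all segments by 0.53 and by -0.83 there. Traj44 at 24 h ran from -0.44 to 0.059 leaving out single libraries, and its WT change was 0.0035 without the 4 libraries.

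For partner ranks, KO minus WT at 48 h gave 2 called without the 4 libraries and 2 without Trav15-2/dv6-2 (0 to 1 leaving out single libraries). Traj43 was then at 1.72 and 0.32, and at 0.95 with Trav lacking the suffix D. The mean gave 3 with the replicate block, 1 with library weights, 5 without the 4 libraries and 3 without Trav15-2/dv6-2 (0 to 3). For 48 h minus 24 h, KO gave 5 without the 4 libraries (0 to 5), and WT gave 2 with library weights, 2 in a fit of the labelled libraries alone and 2 with Trav lacking the suffix D (1 to 5). Leaving out single libraries, Traj44 ran from -0.88 to 3.19 at 24 h, and at 48 h Traj44 ran from -0.52 to 7.07, Traj43 from -2.78 to 2.06, Traj42 from -0.38 to 4.98 and Traj39 from -0.15 to 4.204. The KO change of Traj44 ran from -7.08 to 0.51.

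At steady state member pairs gave 16 with library weights and 8 in a fit of that sampling alone. The direction of these calls and the share of all 3397 pairs called in these settings are not given here. These counts therefore do not set the member pairs apart from other pairs. At 48 h they gave 1 with a pseudocount of 0.1 and 36 without the 4 libraries (0 to 33 leaving out single libraries), and in the mean 1 with a pseudocount of 0.1 and 53 without the 4 libraries (0 to 7). The replicate block changed no call of a member beyond those named with the results. Leaving out a library leaves its group with a single one, assumed to vary like the other groups; leaving out the 4 does so in every labelled group, so its calls rest on the spread at steady state. The mean of the samplings has no fit of its own samplings alone, and pseudocount and centring do not apply to ranks.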
